A study of Daphnia magna with 80 samples.

Results

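Male Daphnia magna of 38 and 40 days, the oldest males sampled, were compared with males of 30 and 33 days. Each of the 4 ages held 3 libraries, so the comparison rests on 12 of the 76 samples with a group, 6 at the later ages and 6 at the earlier ones. The members were taken by the sex and age in the sample labels, and the rows of SIRV spike-ins, synthetic RNA added to each sample, were dropped. The series as a whole counted messenger RNA in females of 15 ages between 10 and 80 days (39 samples) and in males of 13 ages between 8 and 40 days (37 samples). All groups used here were whole animals of strain Bham2 kept under normal conditions in High Hardness COMBO medium and fed the green alga Chlorella vulgaris. They were the males of 38, 40, 30 and 33 days, and, for setting beside them, the males of 8 to 28 and of 35 days and females of 10 to 80 days. The strain is a single clone, the series title calls its females and males genetically identical, and no allele or agent differed between the groups. The labels do not say whether a sample was 1 animal or a pool, nor whether replicates came from separate cultures, so the p-values rest on the spread among these libraries and part of it may be technical.

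Daphnia are small freshwater crustaceans that reproduce by cyclical parthenogenesis: a female can make daughters and sons without mating, and the environment she lives in decides which. A son therefore carries the same genome as his mother and sisters, and sexual differences arise from how genes are used. Males of this species are known to live shorter lives than females. The files list genes by identifier without names, and 0 of the 26646 identifiers matched the reference table, so no gene here can be given a function or a sequence, and the tissue could not be checked against marker genes. In RNA from whole animals, fewer cells of a type and less RNA per cell cannot be told apart.

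The libraries of 38 days held 20586258, 25819540 and 18113729 gene counts and those of 40 days held 10767026, 25016340 and 18007182. The libraries of 30 days held 24489501, 22530961 and 20275293 gene counts and those of 33 days held 20556188, 19165146 and 1599627. The last of these, replicate 3 of 33 days, stood apart: it had a count for 15392 genes, its highest correlation with any of the other 11 libraries was 0.877 (log2 CPM, where CPM are counts scaled to a common library size; prior count of 2), and it lay at -114.8 on the first principal component. Replicate 1 of 38 days went with another age. It correlated best with replicate 3 of 30 days (r = 0.952) and lay at 37.2 on the first component, within the range of the 30-day libraries (22.6 to 54.1), while the other 5 libraries of the later ages lay between -12.9 and 1.21. The counts of called genes that use these 2 libraries are also given without them.

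**Figure D1:**
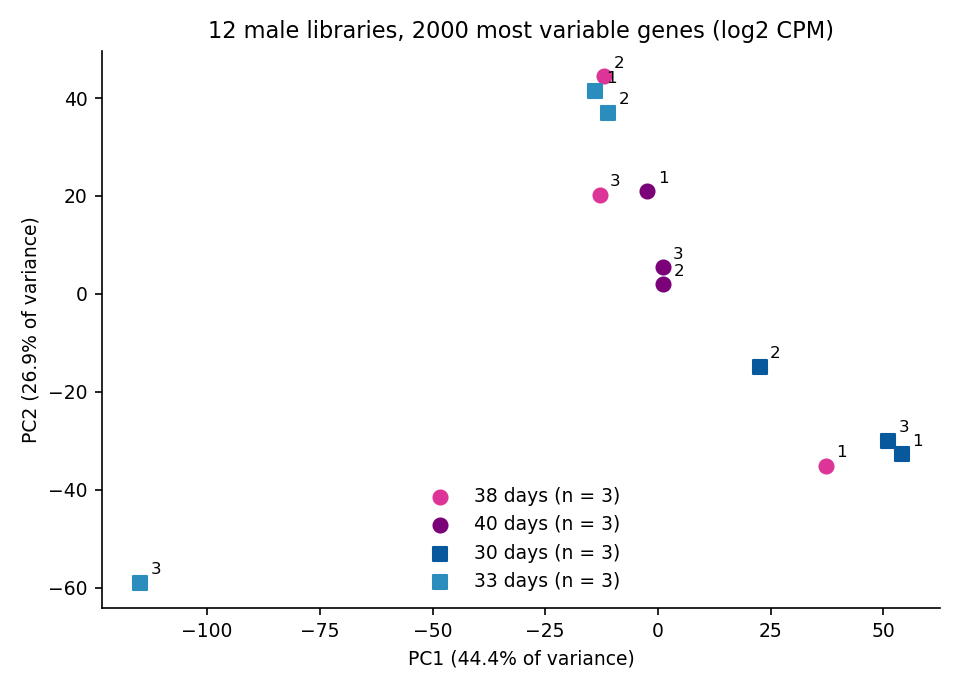
Each point is 1 male library, placed by the first 2 principal components (x and y, with the percentage of variance each holds) of the 2000 most variable genes; colour gives the age and the digit the replicate number. The 6 older libraries do not part from the 6 younger ones, replicate 3 of 33 days lies alone at -114.8 on the first component, and replicate 1 of 38 days lies among the 30-day libraries.

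Few genes parted the older males from the younger ones when both ages of a side were pooled. In males of 38 and 40 days 4 genes were higher and 1 was lower than in males of 30 and 33 days, which is 5 of 15820 genes tested, or 0.0316% (edgeR quasi-likelihood test with Benjamini-Hochberg adjustment, adjusted p under 0.05). The 4 that rose did so by 1.2 to 3.76 on the log2 scale, and the 1 that fell did so by 1.26. In this fit the difference between the 2 ages of a side counts as spread. With the adjusted p under 0.1 there were 29 genes (22 higher, 7 lower), and 1205 genes (7.62%) had an unadjusted p under 0.05. The median change of all genes tested was -0.04 on the log2 scale.

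APZ42_033983 had 77.9, 117 and 122 CPM in the 3 libraries of 38 days and 72.5, 92.3 and 91.8 CPM in those of 40 days, against 17.6, 28.7 and 23.4 CPM at 30 days and 22.2, 26.0 and 25.1 CPM at 33 days. All 6 older libraries lay above all 6 younger ones, and the lowest older value was 72.5 CPM beside a highest younger value of 28.7 CPM. The gene rose 3.94-fold, a log2 change of 1.98 ± 0.173 (SE; edgeR adjusted p = 0.000417), and had the smallest p of all genes tested.

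APZ42_032774 had 1813, 1789 and 1882 CPM at 38 days and 1322, 1662 and 1341 CPM at 40 days, against 239.7, 404 and 252 CPM at 30 days and 500, 415 and 413 CPM at 33 days. Again the groups did not overlap, and the 38-day libraries lay above the 40-day ones. Its log2 change was 2.1 ± 0.225 (SE; edgeR adjusted p = 0.00229), a 4.30-fold rise.

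APZ42_016165 was nearly silent before 35 days. It had 2.46, 2.77 and 3.95 CPM at 38 days and 4.24, 3.43 and 3.73 CPM at 40 days, against 0.501, 0.0806 and 0.293 CPM at 30 days and 0.327, 0.0588 and 0 CPM at 33 days. Its counts were 47 to 88 per older library and 0 to 13 per younger library, so the size of its rise, 3.76 ± 0.431 on the log2 scale (SE; edgeR adjusted p = 0.00353), rests on small numbers in the younger males. The 0 was found in the shallow replicate 3 of 33 days, where a count of 0 allows up to 3 counts, or 1.64 CPM (counting error only). That limit lies below the lowest older value.

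APZ42_028181 had 25.0, 27.7 and 30.5 CPM at 38 days and 19.6, 18.7 and 22.3 CPM at 40 days, against 8.16, 10.7 and 11.3 CPM at 30 days and 11.5, 11.05 and 8.73 CPM at 33 days. Every older library was above every younger one. It rose by 1.2 ± 0.145 on the log2 scale (SE; edgeR adjusted p = 0.00481). APZ42_016165 and APZ42_028181 lie outside the rule for named genes and were named after their values were seen, so that all called genes are shown.

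APZ42_033121 was the gene that fell. It had 39.8, 37.1 and 47.9 CPM at 38 days and 36.65, 36.61 and 42.65 CPM at 40 days, against 81.8, 75.3 and 72.4 CPM at 30 days and 97.2, 96.4 and 139 CPM at 33 days. The groups did not overlap, and the highest younger value was that of the shallow 33-day library. The log2 change was -1.26 ± 0.192 (SE; edgeR adjusted p = 0.0466). This call lay close to the threshold and did not pass it in 10 of the 12 fits that left out 1 library.

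**Figure D2:**
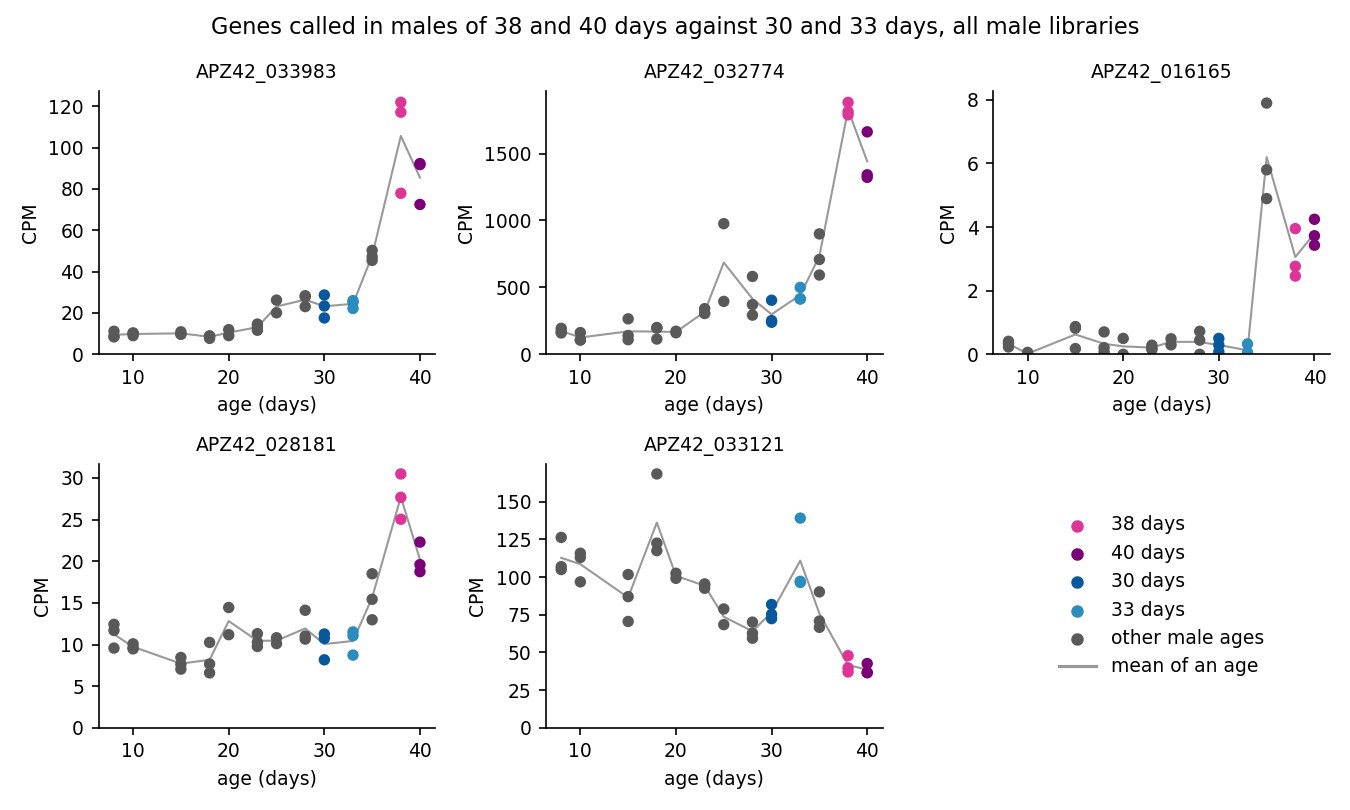
CPM (y axis, linear) against age in days (x axis) for the 5 genes that differed between males of 38 and 40 days and males of 30 and 33 days; each point is 1 male library, the line joins the mean of each age, and colours mark the 4 ages compared. In all 5 panels the 38-day and 40-day points lie clear of the 30-day and 33-day points, as with 72.5 CPM or more against 28.7 CPM or less for APZ42_033983.

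Separation without overlap was more common than the calls. Of the genes tested, 82 (0.518%) were higher in all 6 older libraries than in all 6 younger ones, and 47 (0.297%) were lower in all 6. With replicate 3 of 33 days left out these counts, over the same 15820 genes, were 229 and 180. Leaving out a library can only keep or raise such counts. Without that library the test itself called 132 genes (103 higher, 29 lower), all 5 genes above among them, and without replicate 1 of 38 days it called 8. With both left out it called 244 (173 higher, 71 lower). With spike-in library sizes 0 genes were called by edgeR, with 373 at an unadjusted p under 0.05, and the median gene then changed by 0.07 in place of -0.04 on the log2 scale; DESeq2 with its own size factors called 136 genes (76 higher, 60 lower).

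The log2 ratio of the spike-ins SIRV7 and SIRV1 lay between -0.48 and 0.24 (median 0.09) in the older libraries and between -0.98 and 0.03 (median -0.30) in the younger ones. The ranges overlapped, and the difference of the means, 0.35, did not pass an exact permutation test (2-sided p = 0.0758). With this ratio as a covariate 3 genes were called, all higher and all among the 4 above; APZ42_028181 then had an adjusted p of 0.0528 and APZ42_033121 one of 0.25 (edgeR).

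Males of 35 days entered neither side, and their values for the 5 genes can be read beside the comparison. APZ42_033983 had 47.25, 45.4 and 50.3 CPM at 35 days and APZ42_032774 had 899.6, 592 and 708 CPM, in both cases between the highest younger and the lowest older library. APZ42_028181 had 15.4, 18.5 and 13.0 CPM, also between the 2 sides. APZ42_032774 had not climbed steadily up to then. Its mean in males was 318, 686, 415, 299 and 443 CPM at 23, 25, 28, 30 and 33 days. All younger libraries lay below the 25-day mean. That mean was uneven: replicate 1 of 25 days had 976 CPM, above every 35-day library, and replicate 2 had 395 CPM. APZ42_016165 had 4.89, 5.80 and 7.89 CPM at 35 days, above every older library, while all 28 male libraries of 8 to 33 days lay at or under 0.872 CPM. APZ42_033121 had 90.2, 66.65 and 70.8 CPM at 35 days. Replicate 1 lay within the younger range of 72.4 to 139 CPM. Replicates 2 and 3 lay between that range and the older range of 36.6 to 47.9 CPM. The genes thus did not share 1 time course: at 35 days APZ42_016165 lay above the older libraries. The other called genes lay between the 2 sides there, APZ42_033121 in replicates 2 and 3 only.

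The age trend of younger adult males was fitted in 22 other libraries, of 8 to 28 days. In these 2263 of 16357 genes tested (13.8%) changed with age, 1051 upward and 1212 downward (edgeR, adjusted p under 0.05). With spike-in library sizes the counts were 107 upward and 509 downward, so the balance of directions depends on the scaling. APZ42_033983 rose by 0.71 ± 0.108 (SE; edgeR adjusted p = 7.88e-05) for each 10 days on the log2 scale, and APZ42_032774 rose by 0.93 ± 0.173 (SE; adjusted p = 0.000659). APZ42_033121 fell by 0.32 ± 0.106 (SE; adjusted p = 0.0482). APZ42_028181 did not pass the threshold, with a slope of 0.11 (adjusted p = 0.489), and APZ42_016165 had too few counts to be tested. For the first of these genes the level was 7.72 to 11.9 CPM over 14 libraries of 8 to 20 days and 11.6 to 28.4 CPM over 8 libraries of 23 to 28 days.

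A straight line through all 37 male samples, with an added term for 38 and 40 days, was used to ask which genes left their own trend at the end. The older males lay off the line for 22 of 17304 genes tested (0.127%), above it for 7 and below it for 15. With a quadratic age term 0 genes were called by edgeR (700 at an unadjusted p under 0.05), and DESeq2 called 61 with the straight line. With spike-in library sizes 0 were called as well (204 at an unadjusted p under 0.05), so no departure named here passed in that fit. APZ42_033983 lay above its line by 1.18 ± 0.199 (SE; edgeR adjusted p = 0.002) and APZ42_021541 by 0.92 ± 0.15 (SE; adjusted p = 0.00195). The corresponding values were 0.91 (adjusted p = 0.00337) for APZ42_028181 and -0.94 (adjusted p = 0.0153) for APZ42_033121. APZ42_032774 did not pass, with 1.14 (adjusted p = 0.154), and neither did APZ42_016165, with 0.21 ± 0.787 (SE). These fits share the 12 libraries with the comparison above and are not a second set of evidence.

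APZ42_020116 and APZ42_022869 lay below their lines. APZ42_020116 had 7.38, 6.82 and 9.22 CPM at 38 days and 5.78, 6.15 and 6.26 CPM at 40 days, against 11.7, 13.3 and 14.8 CPM at 30 days and 12.49, 12.52 and 7.09 CPM at 33 days. The groups overlapped through the shallow 33-day library alone, and 35-day males stood higher, at 18.6, 19.9 and 15.7 CPM. Its departure was -1.16 ± 0.177 (SE; edgeR adjusted p = 0.00172). APZ42_022869 ranged over 21.2 to 29.4 CPM in the older libraries and 30.0 to 37.1 CPM in the younger ones, with no overlap. It rose over 8 to 28 days (slope 0.29, adjusted p = 0.00526) and lay below its line by -0.67 ± 0.108 (SE; adjusted p = 0.00195) at 38 and 40 days.

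The 2 ages of a side also differed from each other. Between 40 and 38 days 162 genes differed (1.02%), 121 of them higher and 41 lower at 40 days. Between 33 and 30 days 1015 genes differed (6.42%), 685 higher and 330 lower at 33 days. The 2 tests came from 1 fit with a mean for each age over the same 15820 genes. The counts moved when 1 library was left out, which also leaves an age with fewer libraries, and the part of each was not tested. Between 33 and 30 days 94, 861 and 128 genes were called without replicates 1, 2 and 3 of 30 days. Without replicates 1 and 2 of 33 days the counts were 418 and 699, and without the shallow library 1359. Between 40 and 38 days the counts were 129, 37 and 14 without replicates 1, 2 and 3 of 38 days, and 41, 20 and 22 without replicates 1, 2 and 3 of 40 days. Without the shallow library, which shares the fit, 704 genes were called between 40 and 38 days.

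Pair by pair, in comparisons that share libraries, the older males differed in more genes from 30 days than from 33 days. At 38 days 374 genes (2.36%) differed from 30 days, 295 higher and 79 lower, and 73 genes (0.461%) differed from 33 days, 46 higher and 27 lower. At 40 days 546 genes (3.45%) differed from 30 days, 380 higher and 166 lower, and 37 genes (0.234%) differed from 33 days, 28 higher and 9 lower. With all libraries the order was not that of days apart: 33 and 30 days, 3 days apart, gave 1015 genes, and 40 and 33 days, 7 days apart, gave 37. The shallow library belongs to 33 days, and the median gene varied more there, with an SD of 0.524 on the log2 CPM scale over the 3 libraries and 0.186 without the shallow one, beside 0.281, 0.229 and 0.263 at 38, 40 and 30 days. Without it the counts were 919 for 38 against 30 days, 198 for 38 against 33 days, 1412 for 40 against 30 days and 651 for 40 against 33 days. The pair of 33 and 30 days, with 1359, then no longer had the most calls, and 40 against 33 days no longer had the fewest. Without replicate 1 of 38 days the same 4 pairs gave 1099, 22, 1028 and 129 genes, and 33 against 30 days gave 1444. In both cases the older males still differed in more genes from 30 days than from 33 days. Neither case makes these 2 ages alike in number and depth: 33 days held 2 libraries in the first, and kept the shallow one in the second. Whether the order comes from this was not tested.

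**Figure D3:**
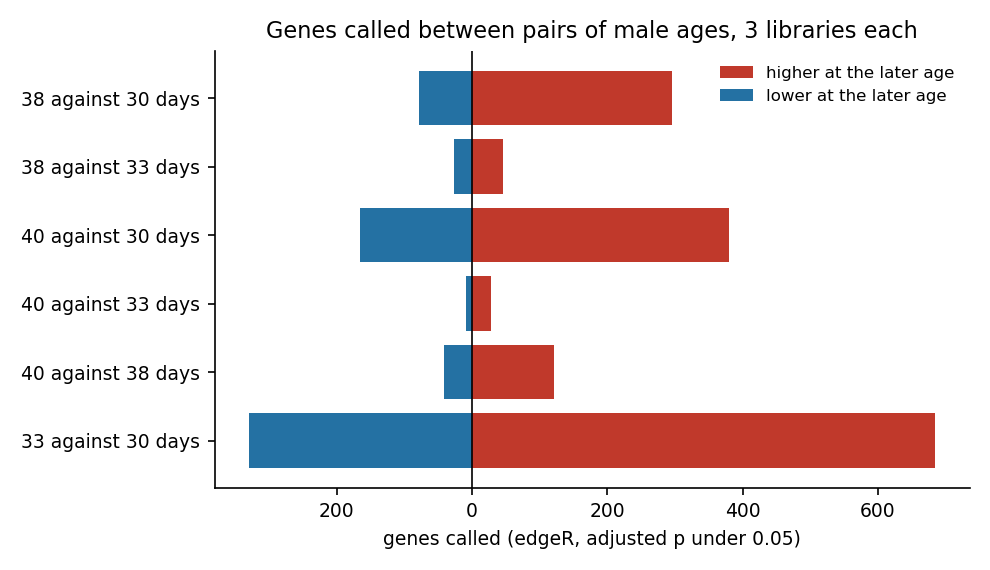
Number of genes called (x axis; edgeR, adjusted p under 0.05) for each of the 6 pairs among the 4 male ages, 3 libraries each, with genes higher at the later age to the right of 0 and lower ones to the left. The bar for 33 against 30 days, with 685 higher and 330 lower, is the longest of the 6, and that for 40 against 33 days, with 28 and 9, is the shortest; without replicate 3 of 33 days these 2 pairs gave 1359 and 651 genes, and 40 against 30 days gave the most, 1412.

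Distances between libraries were compared as well. The median root-mean-square difference in log2 CPM was 0.894 over the 36 pairs of an older and a younger library, 0.811 over the 9 pairs of 40 and 38 days, 1.07 over the 9 pairs of 33 and 30 days, and 0.659 over the 12 pairs of the same age. Without the shallow library these medians were 0.856, 0.811, 1.05 and 0.61. An older library was thus about as far from a younger one as 40-day libraries were from 38-day ones, and nearer than 33-day libraries were to 30-day ones.

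APZ42_023639 had the smallest p between the 2 older ages. It had 6.59, 7.59 and 6.1 CPM at 40 days, against 36.0, 39.65 and 43.0 CPM at 38 days, with no overlap. The log2 change was -2.52 ± 0.173 (SE; edgeR adjusted p = 8.41e-05). At 35 days it had 25.5, 21.5 and 23.9 CPM, so the level climbed to 38 days and was low at 40 days; at 33 days it was also low, at 5.75 to 7.09 CPM, and at 30 days it stood at 14.8 to 18.7 CPM.

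APZ42_026926 likewise was lower at 40 days, with 75.4, 73.2 and 70.9 CPM, against 277, 266 and 289 CPM at 38 days. Its log2 change was -1.90 ± 0.17 (SE; edgeR adjusted p = 0.000574). Over 8 to 28 days this gene rose by 1.37 per 10 days on the log2 scale (adjusted p = 1.8e-07), so the 40-day libraries ran against its earlier trend. An earlier drop was seen too: its mean was 160 CPM at 30 days and 95.5 CPM at 33 days (log2 change -0.65, edgeR adjusted p = 0.0391). APZ42_030709 was higher at 40 days, with 27.5, 37.7 and 35.0 CPM, against 10.4, 10.8 and 10.4 CPM at 38 days (log2 change 1.69 ± 0.173, SE; edgeR adjusted p = 0.00124). APZ42_032703 was also higher, with 59.6, 79.5 and 83.6 CPM at 40 days against 22.0, 20.4 and 19.9 CPM at 38 days (log2 change 1.86 ± 0.191, SE; adjusted p = 0.00124). Neither gene had overlapping groups. The mean of APZ42_032703 also swung between earlier ages, at 8.53, 49.4, 22.0, 76.2 and 20.8 CPM at 28, 30, 33, 35 and 38 days. Its change between 33 and 30 days was -1.09 on the log2 scale (edgeR adjusted p = 0.0107).

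On the younger side, APZ42_015827 had 683, 494 and 496 CPM at 33 days, against 103, 143 and 86.5 CPM at 30 days. Its log2 change was 2.42 ± 0.252 (SE; edgeR adjusted p = 0.00268). APZ42_015783 had 1001, 746 and 631 CPM at 33 days, against 144, 227 and 136 CPM at 30 days (2.31 ± 0.261, SE; adjusted p = 0.00318). Over 10 to 25 days together both genes were higher in males than in females. The differences were 4.93 ± 0.951 and 4.48 ± 0.746 on the log2 scale (SE, edgeR adjusted p = 0.000159 and 3.24e-05). The gap was uneven. Mean CPM of APZ42_015827 in males and females was 239.5 and 70.7 at 10 days and 206 and 0.918 at 15 days. At 20 days it was 375.5 and 58.55, and at 25 days 213 and 1.74. In males the levels of both genes went up and down over successive ages: at 28, 30, 33, 35 and 38 days the mean of APZ42_015827 was 693, 111, 558, 51.6 and 488 CPM.

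The 2 named genes that were lower at 33 days moved the other way. APZ42_022384 had 7.0, 4.76 and 5.46 CPM at 33 days, against 26.15, 19.8 and 23.3 CPM at 30 days (log2 change -1.92 ± 0.202, SE; edgeR adjusted p = 0.00268). APZ42_013312 had 38.65, 40.6 and 26.7 CPM at 33 days, against 234, 117 and 222 CPM at 30 days (-2.33 ± 0.269, SE; adjusted p = 0.00318). At 28 days they had been low as well, at 15.3, 9.04 and 1.79 CPM for APZ42_022384 and 79.1, 43.9 and 18.0 CPM for APZ42_013312, and at 35 days APZ42_013312 stood at 191, 177.2 and 194 CPM.

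**Figure D4:**
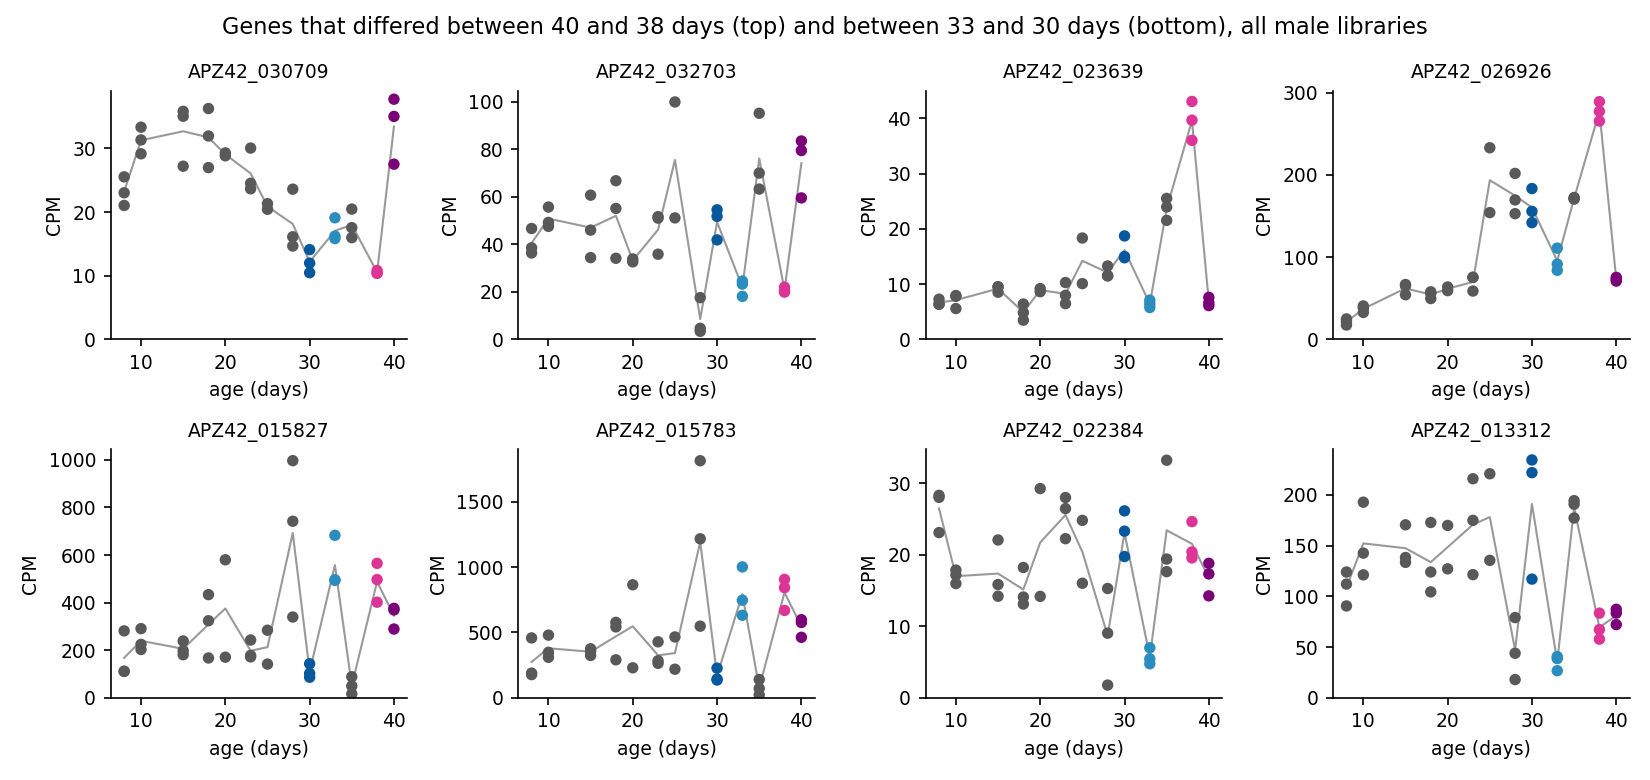
CPM (y axis, linear) against age in days (x axis) for 4 genes that differed between 40 and 38 days (top row) and 4 that differed between 33 and 30 days (bottom row); each point is 1 male library, lines join the means of ages, and the 4 ages compared are coloured (38 pink, 40 purple, 30 dark blue, 33 light blue). In the bottom row the level moves up and down between neighbouring ages from 28 to 38 days, as in the means of 693, 111, 558, 51.6 and 488 CPM for APZ42_015827. In the top row APZ42_032703 also swings, with means of 8.53, 49.4, 22.0, 76.2, 20.8 and 74.2 CPM from 28 to 40 days.

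The genes that differed between 33 and 30 days were also followed as sets in ages that did not choose them, as medians over genes of log2 CPM set against the middle of 30 and 33 days. The 685 genes higher at 33 days had 0.21, 0.24 and 0.13 in replicates 1, 2 and 3 of 28 days and 0.69, 0.32 and 0.40 in those of 40 days, all on the side of 33 days. Replicates 1, 2 and 3 of 8 days had -0.66, -0.42 and -0.33, on the side of 30 days. The other ages were divided, among them 35 days, where replicates 1, 2 and 3 had 0.53, -0.68 and -0.36, and 38 days, where they had -0.10, 0.96 and 0.83. The 330 genes lower at 33 days had 0.34, 0.48 and 0.49 at 35 days, on the side of 30 days, and -0.05, -0.08 and -0.26 at 28 days. At each age from 8 to 25 days their mean over libraries also lay on the side of 30 days, between 0.18 and 0.46. At 38 days these 330 genes had 0.33, -0.06 and -0.06, so replicate 1 of 38 days again went with 30 days. The median of all genes tested lay between 0.05 and 0.09 in each library of 28, 35, 38 and 40 days, and between -0.01 and 0.13 in those of 8 days.

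The calls within a side were also set beside the trend of 8 to 28 days, which uses other libraries. Of the genes called between 33 and 30 days and tested in both, 174 were called in the same direction in the trend and 30 in the opposite direction, together 20.2% of the first list and 9.1% of the second, where 14.3% of all genes were called in the trend. Of those called between 40 and 38 days, 3 were called in the same direction and 25 in the opposite one (17.3% of the first list and 1.25% of the second). The share is near that of all genes, and the opposite directions rest in part on the 28-day libraries, where the 121 genes higher at 40 days lay at a median of -1.62 on the log2 scale against the middle of 38 and 40 days, beside -0.64 to 0.41 at 8 to 25 days. With the trend fitted over 8 to 25 days 3 genes had the same direction and 9 the opposite one, together 7.45% of the list, where 6.66% of all genes were called. Between the lists of the older and the younger side, which share no library but share a fit, 17 genes had the same direction and 13 opposite ones. These are 18.5% of the 40 against 38 days list and 2.96% of the 33 against 30 days list, where 6.42% of all genes were called between 33 and 30 days.

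When each age had its own mean and the 38-day and 40-day means were averaged and set against those of 30 and 33 days, 142 genes were called (0.898%), 115 higher and 27 lower. The difference between the ages of a side no longer counts as spread in this fit, so it asks less of a gene, and all 5 genes above were among the 142. The median change was 1.29 for the higher genes and -0.93 for the lower genes, beside -0.01 for all genes tested on the log2 scale, and 81 and 10 of them changed by at least 2-fold. Of the 115 higher genes 34 separated the 6 older from the 6 younger libraries without overlap, as did 11 of the 27 lower ones. The higher genes together took 1.16% of gene counts in older males and 0.464% in younger males, and the lower ones 0.0733% in older males and 0.122% in younger males. The genes were chosen by their difference between these same libraries, so the sizes, the separation and the shares describe the list and are not further evidence. This list also leans on the shallow library: without it the same fit called 571 genes, and without replicate 1 of 38 days 191.

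Males of 35 days did not choose the list. At this age 67 of the 115 higher genes lay between the 2 sides, 13 lay beyond the older side and 35 lay beyond the younger side, with a median of 27.6% of the change reached. Of the 27 lower genes 15 lay between, 4 beyond the older side and 8 beyond the younger side, with a median of 22%. The libraries of 35 days were uneven: set against the middle of 30 and 33 days, the median of the higher genes was 1.00, 0.19 and 0.16 in replicates 1, 2 and 3. The mean over the libraries of an age was -0.95 at 8 days and between 0.06 and 0.64 at 10 to 28 days, and at 30, 33, 35, 38 and 40 days it was -0.44, 0.43, 0.45, 1.28 and 1.45. The mean at 35 days thus lay within the range of 10 to 28 days. The list was chosen by the difference between the sides, which widens the step, so the timing of the step cannot be read from these values. The 2 younger ages differed in the higher genes by about as much as 38 days did from 33 days.

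Beside the trend of 8 to 28 days, 38 of the 113 higher genes tested in both had also risen and 0 had fallen, while 5 of the 27 lower genes had fallen and 1 had risen. Together this is 31.4% of the list and 1.96% of the genes called in the trend, where 14.3% of all genes tested in both were called.

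The 115 higher genes were set beside the sex difference at younger ages. At 10 to 25 days, in libraries used in neither side, 10368 of 17155 genes tested (60.4%) differed between males and females, 5792 higher and 4576 lower in males (edgeR with age as a factor, adjusted p under 0.05). With spike-in library sizes 1876 were higher and 8521 lower in males, and the median gene moved to -0.65 in place of 0.09 on the log2 scale. Under the usual scaling 75 of the 115 higher genes (65.2%) were higher in males and 15 were higher in females, where 35.7% of all genes were higher in males. Of the 27 lower genes 13 were higher in males and 2 higher in females, where 26.7% of all genes were higher in females. With spike-in sizes for the sex difference 56 of the 115 (48.7%) were higher in males and 23 higher in females. Of the 27 lower genes 6 were then higher in males and 10 higher in females. In that fit 11.5% of all genes were higher in males and 50.6% higher in females. Among the named genes under the usual scaling, APZ42_033983 was lower in males than in females over 10 to 25 days together, by -0.72 (edgeR adjusted p = 0.0214), and APZ42_033121 by -0.35 (adjusted p = 0.0331). This did not hold at every age. At 25 days the mean of APZ42_033983 was 23.2 CPM in males and 12.3 CPM in females, while at 10, 15 and 20 days it was lower in males. At 10 days the mean of APZ42_033121 was 108.5 CPM in males and 101.6 CPM in females, while at 15, 20 and 25 days it was lower in males.

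The late change of males was set against that of females, with ages that are not matched exactly: males of 38 and 40 against 30 and 33 days, and females of 40 and 45 against 30 and 35 days. The change differed between the sexes for 2 of 17064 genes (0.0117%), both with a larger change in males. Within females 65 genes (0.381%) changed between these ages, 50 higher and 15 lower at 40 and 45 days; with a replicate block 16 were called (15 higher, 1 lower), with spike-in sizes 0 (1249 at an unadjusted p under 0.05), and by DESeq2 349. Of the 142 genes of the male list 5 were called in females too, all 5 upward in both, which is 3.52% of the male list and 8.06% of the female one. Without the shallow library 19 genes differed between the sexes in their change, without replicate 1 of 33 days 6 did, and DESeq2 called 86. With spike-in library sizes 0 genes were called by edgeR (867 at an unadjusted p under 0.05), so both calls were lost.

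APZ42_033983 was 1 of the 2. In males its values were those given above; in females it ranged over 13.1 to 23.7 CPM at 40 and 45 days (5 libraries) and 12.3 to 22.4 CPM at 30 and 35 days (6 libraries), and these overlapped. The female change was 0.07 (edgeR adjusted p = 0.914) and the male minus female difference was 1.91 ± 0.26 on the log2 scale (SE; adjusted p = 0.00341). Females reached levels like those of old males later in life: from 50 to 80 days the 17 female libraries held 36.2 to 113 CPM, with a median of 69 CPM, beside 72.5 to 122 CPM in the 6 older male libraries.

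APZ42_021541 was the other. In males it had 180, 147 and 165 CPM at 38 days and 109, 134 and 144 CPM at 40 days, against 54.5, 90.4 and 61.5 CPM at 30 days and 71.2, 60.2 and 80.8 CPM at 33 days. The male groups did not overlap, and the male comparison gave 1.04 ± 0.176 (SE; edgeR adjusted p = 0.0513), which missed the threshold by little. In females the range was 42.3 to 60.7 CPM at 40 and 45 days and 59.3 to 93.1 CPM at 30 and 35 days. The female change was -0.52 (adjusted p = 0.182), and the male minus female difference was 1.57 ± 0.233 (SE; adjusted p = 0.0067). Later in life the female range overlapped that of old males. From 50 to 80 days the 17 female libraries held 59.2 to 138 CPM, with a median of 81.25 CPM, beside 109 to 180 CPM in the 6 older male libraries.

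**Figure D5:**
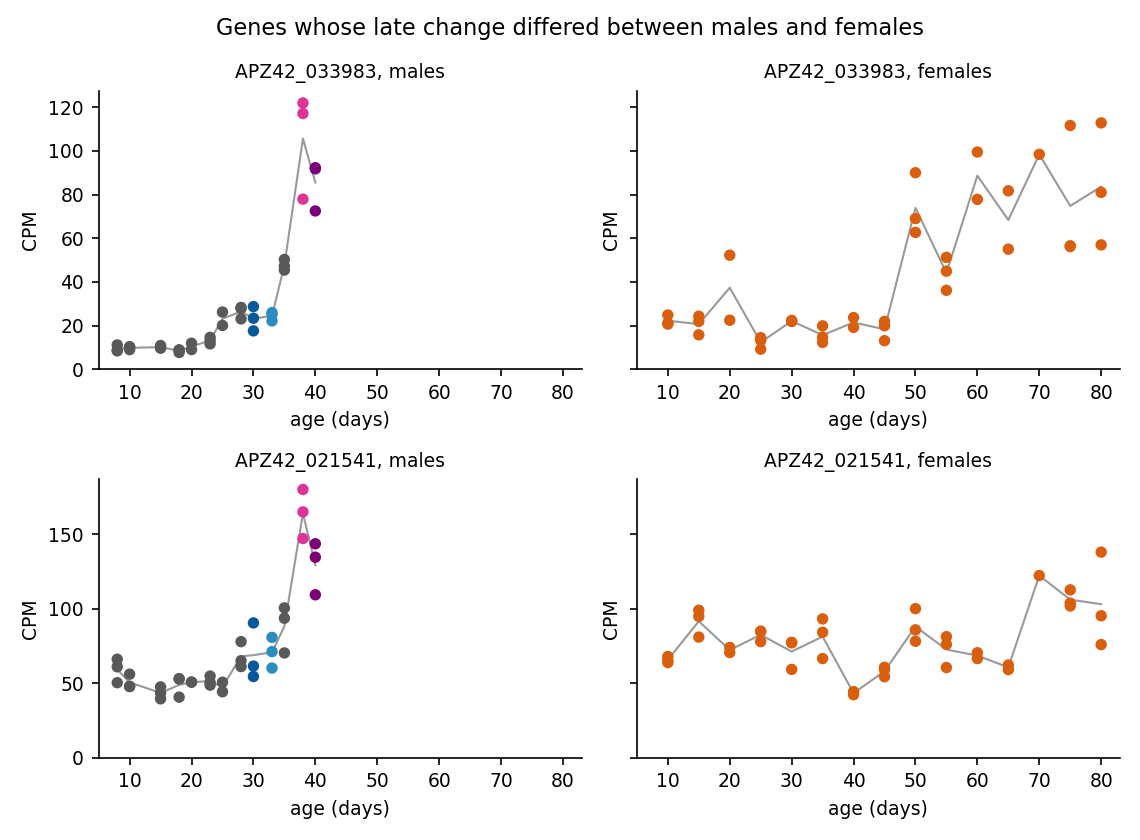
CPM (y axis, linear) against age in days (x axis) for the 2 genes whose late change differed between the sexes, with males on the left and females on the right; each point is 1 library, lines join the means of ages, and in males the 4 ages compared are coloured. For APZ42_033983 the older males lie at 72.5 to 122 CPM while females stay at 13.1 to 23.7 CPM at 40 and 45 days and reach 36.2 to 113 CPM from 50 to 80 days.

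The other called genes differed in how they stood in females. APZ42_032774 rose in females as well, by 2.71 ± 0.389 on the log2 scale at 40 and 45 against 30 and 35 days (SE; edgeR adjusted p = 0.00268), and the difference between the sexes did not pass the threshold (-0.60, adjusted p = 0.754). Its female levels were wide, at 603 to 6547 CPM at 40 and 45 days and 355 to 887 CPM at 30 and 35 days. APZ42_016165 stayed at or under 1.06 CPM in all 39 female libraries, and its male minus female difference of 3.57 had an adjusted p of 0.167. For APZ42_028181 the difference was 1.25 (adjusted p = 0.0992) and for APZ42_033121 it was -0.99 (adjusted p = 0.244).

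A block of 7 genes whose levels move together took a large and uneven share of the counts. Their share was 7.75% to 24.3% (median 17.9%) in the 6 older libraries and 2.49% to 42.3% (median 18.9%) in the 6 younger ones. The lowest was the shallow library and the highest 2 were the other 33-day libraries, so the ranges overlapped throughout (exact permutation test over every assignment of the 12 libraries, 2-sided p = 0.942, 0.985 adjusted over 3 shares). For APZ42_024615, which takes the largest share of counts in this block, the log2 change was -0.54 ± 0.598 (SE; edgeR adjusted p = 0.894). The spike-ins took 0.431% to 1.07% of counts (median 0.973%) in older males and 0.479% to 1.30% (median 0.84%) in younger males (exact permutation p = 0.985, 0.985 adjusted). With the block left out of the fit 4 genes were called, the same 4 that rose.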

How the data were processed

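The deposited table holds counts per gene, whole numbers that were not normalised, in 80 columns, and TopHat2 2.1.1 and DESeq2 1.20 are listed per the submitters' processing notes. The read counter, strandedness, build and gene models were not given in the sources used here. Values of overlapping or near-identical genes are therefore uncertain. Of the columns 3 are marked mislabelled in the labels and were left out, and 2 technical runs of 1 sample were summed. Messenger RNA libraries (Illumina TruSeq) came from whole animals frozen with an empty brood pouch, per the labels' protocols.

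The tests were run in R 4.3.3 with edgeR 4.0.16 (quasi-likelihood F-test, TMM, filterByExpr, Benjamini-Hochberg over all genes tested, adjusted p under 0.05). Printed CPM use TMM sizes over all 76 samples. A standard error is the log2 change over the root of its F value. Fits were tested on simulated counts. Alternatives used DESeq2 1.42.0 and limma 3.58.1. Named genes are, per comparison, the 2 higher and 2 lower called genes that have a mean log2 CPM of 3 or more and the smallest p. The comparisons, lists and tests were chosen with earlier results of these data known.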

Additional observations from a re-analysis of the deposited data

Results flagged for a closer look

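Replicate 3 of 33 days held 1599627 gene counts, far below the next lowest of the 6 younger libraries. In the same library APZ42_033121 had 139.1 CPM, far above the other younger libraries, while the 6 older libraries lay between 36.6 and 47.9 CPM. Of 44 groups of 6 libraries examined in this way, 2 had a library standing apart, and chance gives about 1 in 20.

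The late change of APZ42_033983 differed between males and females by 1.91 on the log2 scale, and that of APZ42_021541 by 1.57 (edgeR adjusted p = 0.00341 and 0.0067). The ages of the sexes are close but not the same, and their part in these differences was not tested.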

How the results depend on the processing

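The 5 genes called between older and younger males were followed through 30 alternatives, and none changed direction. APZ42_033983 stayed past the threshold in 29, APZ42_032774 in 28, APZ42_016165 in 27, APZ42_028181 in 26 and APZ42_033121 in 13. Their number was 136 with DESeq2, 206 with limma-voom and library quality weights, 142 with 1 mean per age, 163 with 1 mean per age over all male samples, 40 with log2 library size as a covariate, 3 with the SIRV7 to SIRV1 ratio as a covariate, 671 against 30 days alone and 6 against 33 days alone, 4 for 38 days alone (3 of the same) and 5 for 40 days alone (1 of the same), 0 with spike-in sizes (373 at an unadjusted p under 0.05), and 4 to 132 with 1 library left out. Chosen after seeing the data, leaving out replicate 3 of 33 days and replicate 1 of 38 days together gave 244, a slope over 30 to 40 days gave 33, and 1 mean per age gave 571 without replicate 3 of 33 days and 191 without replicate 1 of 38 days.

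Between 40 and 38 days the 162 calls were 644 with DESeq2 and 14 to 704 with 1 library left out. Between 33 and 30 days the 1015 calls were 1950 with DESeq2 and 94 to 1444 with 1 library left out. The 2263 calls of the trend at 8 to 28 days were 616 with spike-in sizes and, chosen after seeing the data, 1043 over 8 to 25 days. With replicate 3 of 33 days or replicate 1 of 38 days left out, also chosen then, 38 against 30 days gave 919 to 1099 in place of 374, 38 against 33 days 22 to 198 in place of 73, 40 against 30 days 1028 to 1412 in place of 546, and 40 against 33 days 129 to 651 in place of 37. The 22 departures were 49 without a filter, 61 with DESeq2, 0 with spike-in sizes (204 unadjusted), 0 with a quadratic term (700 unadjusted) and, chosen after seeing the data, 21 to 35 without replicate 1 of 38 days or replicate 3 of 33 days. The 2 differences between the sexes were 86 with DESeq2, 0 with spike-in sizes (867 unadjusted) and 2 to 19 with 1 male library left out. The 65 calls in females were 349 with DESeq2 and 0 with spike-in sizes (1249 unadjusted). Counts of 0 here are from edgeR. The spike-in ratio test and the sex overlap with spike-in sizes were also added after seeing the data. Except where samples or covariates were taken away or added, the cause was not tested.

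Same-numbered samples did not deviate together throughout: over 18 pairings their deviations correlated at -0.298 to 0.388, with 5 over 0.1. Whether same-numbered samples share more than a number was not tested. With a replicate block 5 genes were called between the sides (4 of the same), 135 between 40 and 38 days, 666 between 33 and 30 days, 2179 in the trend, 21 departures, 2 between the sexes, 16 in females and 10046 for the sex difference. Depth limits what the 1599627 counts of the shallow library can show for genes of low level.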
